A study of Mus musculus with 6 samples.

Results

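The Rab3 and Rab27 exocytosis genes are the small GTPases Rab3a, Rab3b, Rab3c, Rab3d, Rab27a and Rab27b, the Rab3 exchange factor gene Rab3il1, and the genes of the Rab effectors Rph3al and Unc13d. All 9 genes were found by name among the non-control probes of the array, by 15 of 55681 probes. The scanner software marks each spot that is well above background, and testing required this mark on all 3 arrays of 1 genotype or of both. It was met by 18785 probes of 14158 genes, among them 10 probes of 7 of the 9 genes. Rab27a and Rab27b had no tested probe. The set was chosen on the genotype difference of these arrays, in which Rab3a was already known to be higher, so the differences below are a description of these arrays and carry no test.

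Gene expression was measured in CD71highTer119+ bone marrow erythroblasts, the dividing precursors of red cells, sorted from 3 P38α+/- and 3 P38α-/- mice, with 1 one-colour Agilent array for each mouse. The mice were C57Bl/6 and carried Mx1-Cre with P38α fl/+ or P38α fl/fl. They were 6 to 8 weeks old when 3 injections of PolyIC (300 µg each) were given, which induce Cre through interferon in blood cells and in other tissues. After 6 weeks of rest, all 6 mice received phenylhydrazine (PHZ), an agent that destroys circulating red cells, once at 100 mg per kg, and the erythroblasts were sorted on day 4. No untreated mice and no mice without Cre were among these arrays.

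Mapk14, the gene of P38α, was not lower in the arrays labelled P38α-/-. Its brighter probe (mm9, chromosome 17, 28885290 to 28885349) had a log2 difference of 0.54 (standard error 0.19, limma adjusted p = 0.186) and its dimmer probe (28873965 to 28874024) one of 0.01 (standard error 0.42, limma adjusted p = 0.991). The sources used here do not say which sequence was deleted, so every direction below is that of the arrays by their labels. All values are log2 signals minus the 75th percentile of the array, and a difference is P38α-/- minus P38α+/-. The median tested probe differed by −0.16 on this scale, and differences relative to it are given where they matter. The share of probes well above background lay between 36.9% and 53.1% in P38α+/- and between 28.9% and 35.9% in the arrays labelled P38α-/-. All 6 early and all 6 late erythroid markers were well above background on every array.

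Rab GTPases are switches on the surface of vesicles. When they hold GTP they recruit effectors that bring the vesicle to the plasma membrane and prepare it for fusion, and GTPase-activating proteins return them to the GDP form. Rab3 proteins are best known from synaptic vesicles and endocrine granules. Rab27 proteins act on lysosome-related organelles and secretory granules of blood cells, where the Rab27a effector Munc13-4 (Unc13d) is required for granule release by cytotoxic lymphocytes. A role of these genes in erythroblasts is not part of this background.

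The probes behind the largest differences are shown by 30 of their 60 bases, 5′ to 3′. The capitals mark AATAAA, the polyadenylation signal of mRNA, which is held by 10.1% of the 55681 probes of the array and by 4 of the 13 probes of these genes other than Rab27b. The brighter Rph3al probe and the Rab3a probe both hold it.
Rab3a: ctacacacagtcAATAAAgcgaatggacct
Rph3al, brighter probe: aaatgggtcctaAATAAAcctacttctggc
Rph3al, dimmer probe: tcatccttcaggtcatccagagagcagaga
They are bases 26 to 55 of the Rab3a probe, bases 25 to 54 of the brighter Rph3al probe and bases 1 to 30 of the dimmer one. Each of the 13 probes had a sequence that no other probe of the array shares.

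Rab3a was higher on every array labelled P38α-/- than on any P38α+/- array. It encodes the Rab3 protein that binds synaptic and granule membranes in neurons and endocrine cells. Its single probe (mm9, chromosome 8, 73282447 to 73282506, plus strand) stood well above background on every array. Rab3a read −3.94, −4.24 and −4.50 on P38α+/- arrays 1 to 3, and −1.22, −1.74 and −1.43 on the arrays labelled P38α-/-. The lowest array labelled P38α-/- and the highest P38α+/- array were thus well apart, and the arrays of 1 genotype lay close together. The log2 difference was 2.76 (standard error 0.22, n = 3 and 3), a 6.80-fold higher signal, or 2.92 relative to the median tested probe. Over 16 alternatives in processing it lay between 2.02 and 3.25.

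Rph3al encodes Noc2, an effector that binds Rab3 and Rab27 in endocrine and exocrine cells. Both of its probes read higher on all 3 arrays labelled P38α-/-. The brighter one (mm9, chromosome 11, 75644506 to 75644565, minus strand) read −3.80, −4.32 and −3.86 in P38α+/- and −1.80, −1.96 and −1.38 in the arrays labelled P38α-/-. Every array showed it well above background, and its log2 difference was 2.28 (standard error 0.23), a 4.87-fold higher signal, or 2.44 relative to the median tested probe. The dimmer probe, 77908 bases away (75722414 to 75722473), read −4.60, −5.87 and −6.89 against −3.96, −4.06 and −3.26. On 1 P38α+/- array the dimmer probe did not rise well above background, so it was tested through the genotype where it read high. Its log2 difference of 2.03 (standard error 0.58) is therefore no measured size. It was 0.85 with normexp background, 1.48 without that array and 2.63 without P38α+/- replicate 1. The spread of this probe came mainly from the P38α+/- arrays, whose SD was 1.15 against 0.43.

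**Figure D1:**
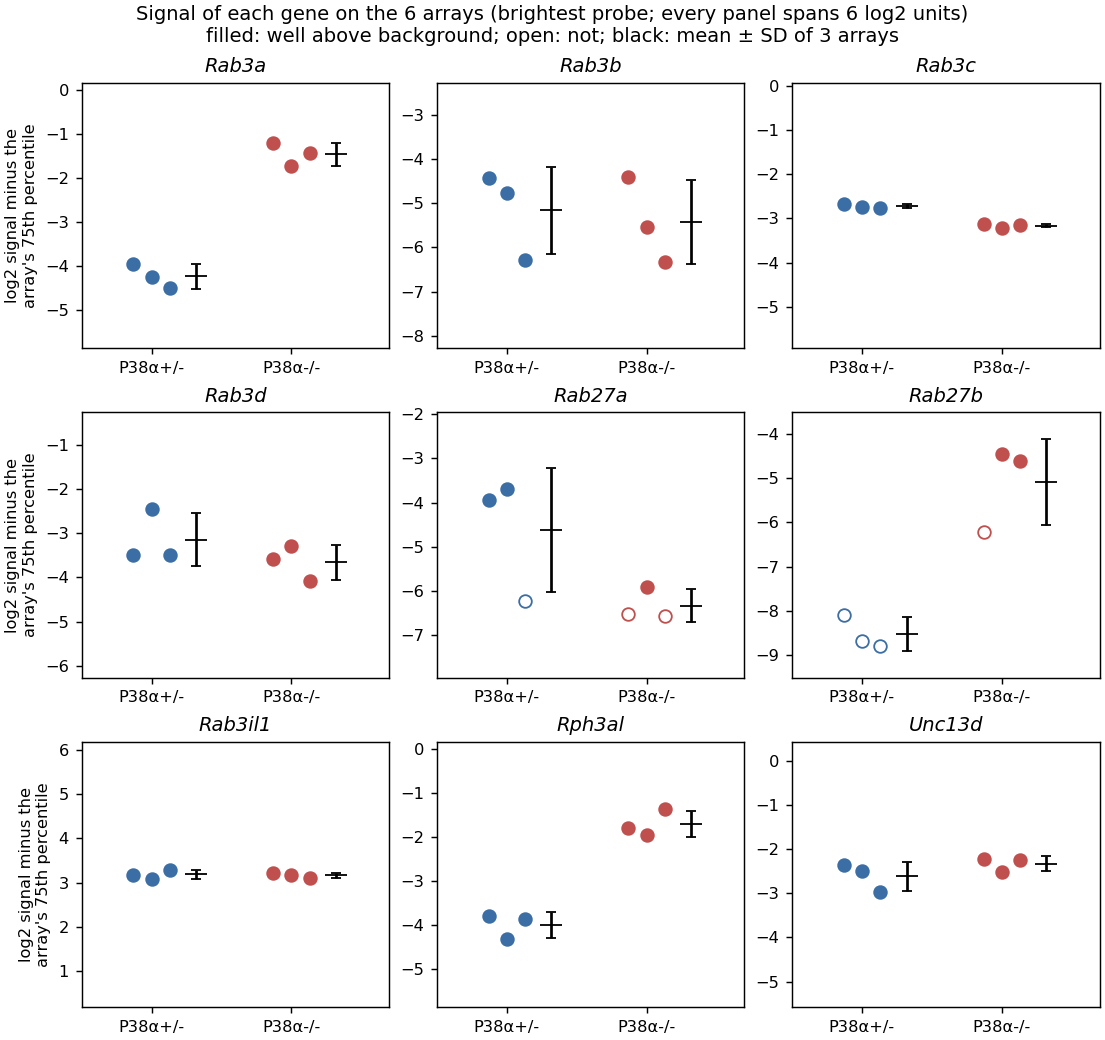
Signal of the 9 genes by their brightest tested probe or, for Rab27a and Rab27b, their brightest probe, as log2 signal minus the array's 75th percentile. Blue points are P38α+/- arrays, red points arrays labelled P38α-/-, open points were not well above background, and black marks are the mean and SD of 3 arrays. Rab3a, Rph3al and Rab27b lie higher on all 3 arrays labelled P38α-/-, Rab3c lies lower, and the other genes overlap.

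Rab27b, the Rab27 protein of platelet, mast cell and secretory granules, was near the detection limit. None of the P38α+/- arrays and 2 of the 3 arrays labelled P38α-/- showed it well above background. Its brighter probe (mm9, chromosome 18, 70143485 to 70143544, minus strand) read −8.09, −8.69 and −8.79 in P38α+/- and −6.21, −4.46 and −4.60 in the others. All 3 arrays labelled P38α-/- were higher, replicates 2 and 3 more so than replicate 1. Since the P38α+/- values lay below the detection floor, only an approximate bound can be given. On the scale used here it put Rab27b 2.34-fold higher (1.88-fold to 3.44-fold with 1 array left out). This bound sets the mean of the brighter group against, on each dim array, the higher of the probe's own signal and the lowest signal of any probe well above background. It is not a strict minimum, since undetected probes can read above that lowest signal. On P38α+/- replicate 1 the lowest such signal was −6.02, while the undetected dimmer Rab3d probe read −5.65. The mean of the brighter group includes replicate 1 labelled P38α-/-, which was not well above background. With normexp background the brighter probe had a log2 difference of only 0.78, so the bound holds for the scale used here alone. The dimmer probe (70138799 to 70138858) read −6.64, −7.82 and −8.66 against −6.47, −6.10 and −6.10, which gives an approximate bound of 1.07-fold higher.

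Its paralog Rab27a showed the opposite order of means. Rab27a controls the release of lytic granules in lymphocytes and of granules in neutrophils. Its probe (mm9, chromosome 9, 72944668 to 72944727, plus strand) read −3.94, −3.68 and −6.23 in P38α+/- and −6.52, −5.90 and −6.57 in the arrays labelled P38α-/-. P38α+/- replicates 1 and 2 were the high ones, while replicate 3 lay within the range of the other genotype, so the genotypes overlapped. Only 2 P38α+/- arrays and 1 other showed it well above background, so it was not tested. The difference of the mean readings was −1.71 on the log2 scale, which is no measured size since readings of both genotypes lay below detection. It was negative in all 16 alternatives, which use the same arrays, and in each of the 3 same-numbered pairs. In pair 3 neither array showed Rab27a well above background, so that sign is no measured direction.

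The summed levels of 3 lists of other blood cell markers were highest on the same arrays as Rab27a. The 9 neutrophil markers, all well above background on every array, had a summed log2 level between 6.78 and 8.16 in P38α+/- and between 5.88 and 6.38 in the others. The 8 T or NK cell markers, 4 of them tested, lay between −0.61 and 1.37 against −1.17 and −0.81, and no array showed Gzmb or Cd8a well above background. The 8 mast cell or basophil markers, 3 of them tested, lay between −1.33 and 0.97 against −2.20 and −1.73, and no array showed Ms4a2 or Cma1 well above background. Taken singly, 7 of the 9 neutrophil markers were lower on all arrays labelled P38α-/-. So were 3 of the 8 T or NK cell markers and 2 of the 8 mast cell or basophil markers, beside 19.7% of all tested genes. Nkg7 (−1.67) made the largest part of the T or NK cell sum and Hdc (−1.72) that of the mast cell sum, while Cd3e overlapped (−0.32). Replicates 1 and 2 of P38α+/- were the highest arrays for all 3 summed lists, as they were for Rab27a. The same 2 arrays were highest for the B cell list (−0.05 and 0.26) and the monocyte or macrophage list (0.36 and 0.64). The order of arrays was thus not particular to the 3 lists. The part of these cells in the Rab27a values was not tested. In sorted cells measured in bulk, fewer cells of a type and less RNA per cell cannot be told apart.

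**Figure D2:**
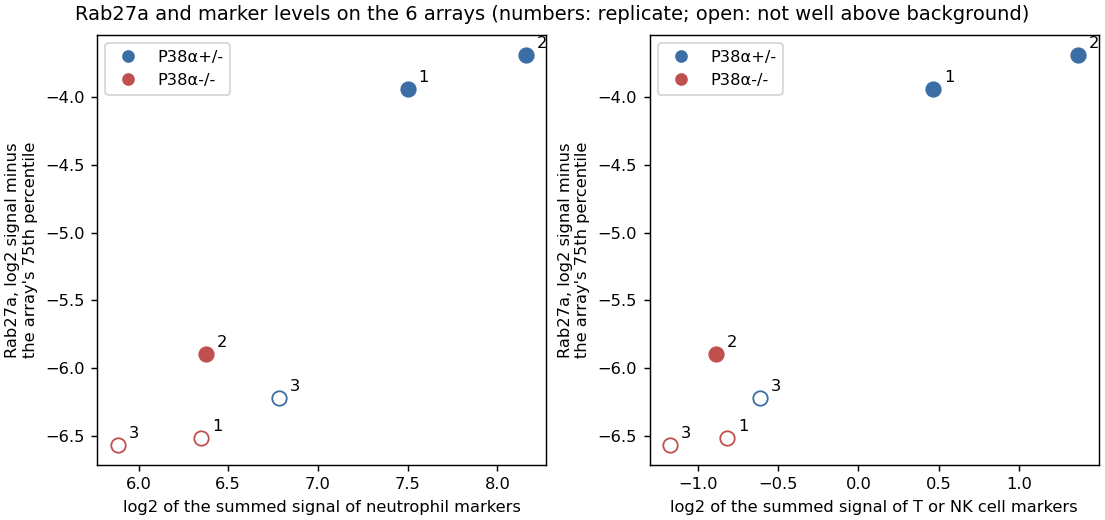
Rab27a signal (log2 minus the array's 75th percentile) against the log2 of the summed signal of 9 neutrophil markers (left) and 8 T or NK cell markers (right), 1 point for each of the 6 arrays, numbered by replicate. P38α+/- replicates 1 and 2 stand at the upper right in both panels and replicate 3 lies beside the arrays labelled P38α-/-.

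Rab3a, Rph3al and Rab27b read higher where the neutrophil, T or NK cell and mast cell lists read lower. The 7 B cell markers, 2 of them tested, lay between −3.19 and 0.26 in P38α+/- and between −4.19 and −2.43 in the others, and the monocyte or macrophage markers between −0.61 and 0.64 against −1.23 and −0.26, with overlap of the ranges in both lists. Within each of the 3 same-numbered pairs of arrays, the array labelled P38α-/- was the lower one for both. The 8 megakaryocyte or platelet markers had a summed level between 1.12 and 1.60 in P38α+/- and between 1.37 and 1.80 in the arrays labelled P38α-/-, which overlap, although the array labelled P38α-/- was higher in each of the 3 pairs, by 0.20, 0.15 and 0.61, and no array showed Ppbp well above background. The part of these cells in the values of Rab3a, Rph3al and Rab27b was not tested. The early erythroid markers lay between 5.81 and 6.22 against 5.91 and 6.16, and the late erythroid markers between 8.54 and 8.87 against 8.47 and 8.86.

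The other Rab3 genes did not follow Rab3a. Rab3b, an isoform of endocrine and epithelial cells (mm9, chromosome 4, 108613734 to 108613793), read −4.44, −4.77 and −6.28 in P38α+/- and −4.42, −5.53 and −6.32 in the arrays labelled P38α-/-. In both genotypes replicate 1 was the highest and replicate 3 the lowest, and the genotypes overlapped along nearly their whole range. The log2 difference of −0.26 was smaller than its standard error of 0.64, and its sign was positive in 6 and negative in 10 of the 16 alternatives.

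Rab3c, a neuronal isoform, was read by 3 probes on chromosome 13, of which 2 overlap by 54 of their 60 bases and so are not independent readings. The brighter of these (mm9, 110850524 to 110850583, minus strand) read −2.67, −2.74 and −2.77 in P38α+/- and −3.13, −3.21 and −3.15 in the others. The SD was 0.05 and 0.04, so the genotypes were apart in spite of a log2 difference of only −0.44 (standard error 0.14), or −0.28 relative to the median tested probe. With the percentile taken over all probes the difference was 0.04, while relative to the median probe it was negative in all 16 alternatives. The overlapping probe (110850530 to 110850589) read −3.43, −3.90 and −3.52 against −4.43, −3.95 and −4.29, again with all 3 arrays lower and a difference of −0.60 (standard error 0.21). The third probe (110844454 to 110844513), 6070 bases from the first, stayed below that mark on all 6 arrays. The first 30 bases of the brightest and of the undetected probe are shown because they disagree on whether the gene is detected.
Rab3c, brightest probe: atgttcTACAGAGTGAGTTCtaggatagca
Rab3c, undetected probe: ctgttaggtatttagtttgtgtgtgaattc
The capitals mark the run of 14 bases that the brightest probe shares with the most promoter windows of RefSeq genes (GRCm38.p6). Any run of 14 bases of that probe, on either strand, occurred in 32 of 32817 windows (0.0975%), against 9 windows for the undetected probe, 1 for Rab3a and 52, the most among the 13 probes, for the dimmer Unc13d probe. Whether other transcripts contribute to the Rab3c or Unc13d signal was not tested.

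Rab3d, the isoform of exocrine and mast cell granules, was read by 2 probes on chromosome 9. The tested one (mm9, 21713734 to 21713793) read −3.50, −2.44 and −3.49 in P38α+/- and −3.58, −3.30 and −4.09 in the arrays labelled P38α-/-. P38α+/- replicate 2 was the high array, and the genotypes overlapped. This array also has the highest summed level of the neutrophil, mast cell, T or NK cell, B cell and monocyte or macrophage markers. The log2 difference of −0.51 (standard error 0.36) was negative in all 16 alternatives. The dimmer probe (21719348 to 21719407) was bright enough on only 3 of the 6 arrays and had overlapping values between −6.42 and −5.58.

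Rab3il1, which encodes an exchange factor that loads Rab3a with GTP, stood well above background on every array, with overlapping genotypes. Its probe (mm9, chromosome 19, 10109886 to 10109945) read 3.17, 3.09 and 3.29 in P38α+/- and 3.22, 3.18 and 3.10 in the others. The log2 difference was −0.02 (standard error 0.14), or 0.14 relative to the median tested probe, and its sign was positive in 4 and negative in 12 of the 16 alternatives. Unc13d was read by 2 tested probes on chromosome 11, 13520 bases apart. The first (mm9, 115936930 to 115936989) read −2.37, −2.51 and −2.98 against −2.24, −2.52 and −2.24, a difference of 0.28 (standard error 0.21). The second (115923410 to 115923469) read −2.51, −2.58 and −3.34 against −2.72, −3.23 and −2.69, a difference of −0.07 (standard error 0.28). The genotypes overlapped by both Unc13d probes, and the probes disagree in sign.

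**Figure D3:**
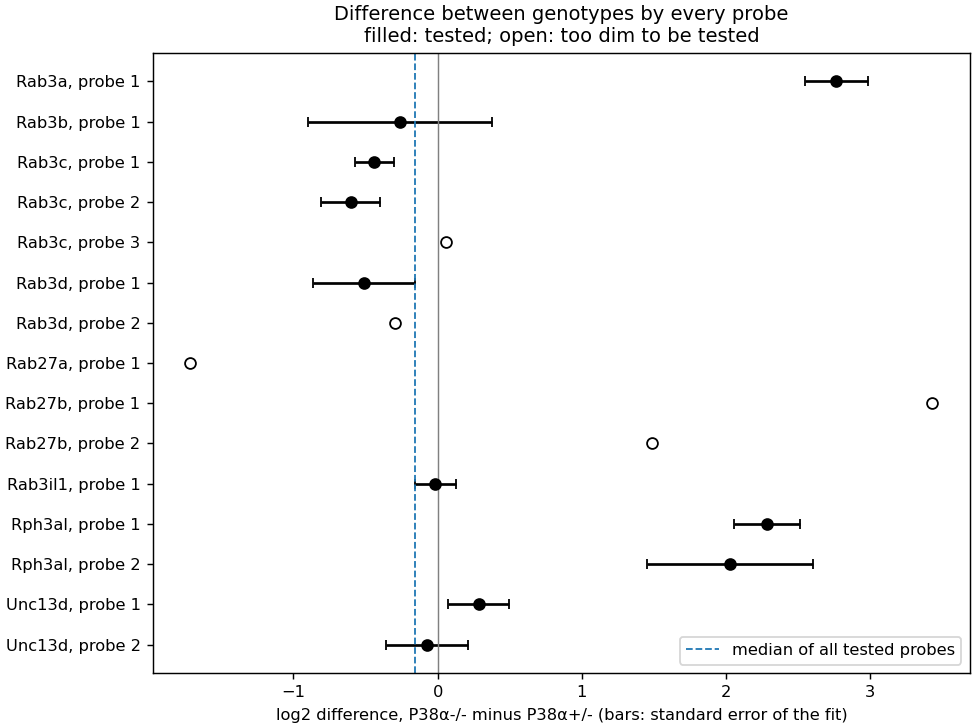
Log2 difference, P38α-/- minus P38α+/-, of all 15 probes of the 9 genes. Filled points are tested probes with the standard error of the fit, open points were too dim to be tested, and the dashed line is the median tested probe at −0.16. Rab3a and Rph3al stand at 2.03 to 2.76, while the other tested probes lie between −0.60 and 0.28. The 2.03 of the dimmer Rph3al probe is no measured size, since 1 P38α+/- array was not well above background. The open points rest on signals at or below detection and are no measured sizes.

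Of the 7 genes with a tested probe, 2 (Rab3a and Rph3al) met the call used here, a limma adjusted p of 0.05 or less together with a change of 2-fold or more, beside 0.191% of all 14158 tested genes, or 0.148% higher and 0.0424% lower. Since the genes were chosen with this comparison in view, nothing is read from that count. By the brightest tested probe, every array labelled P38α-/- was above every P38α+/- array for 2 of the 7 (7.44% of all tested genes) and below for 1, Rab3c (19.7%). Leaving out 1 array at a time, Rab3a and Rph3al were called only without P38α+/- replicate 3. In the other 5 of these fits no gene of the array was called, so they say nothing about these genes in particular. The log2 differences of Rab3a and Rph3al stayed within 2.63 to 2.91 and 2.12 to 2.41.

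The promoters of Rab3a and Rph3al are given because these 2 genes met the call. They are printed from 250 bases before to 30 bases after the RefSeq start, while motifs were searched and counted up to 50 bases after it. The windows were read from the table of GRCm38.p6, a later build than that of the probe positions, in which 7 of the 9 genes were found. The capitals mark TGACG, the core of the CRE that ATF and CREB factors bind, read here from the other strand as CGTCA.
Rab3a, chr8:70754453-70754732, plus strand: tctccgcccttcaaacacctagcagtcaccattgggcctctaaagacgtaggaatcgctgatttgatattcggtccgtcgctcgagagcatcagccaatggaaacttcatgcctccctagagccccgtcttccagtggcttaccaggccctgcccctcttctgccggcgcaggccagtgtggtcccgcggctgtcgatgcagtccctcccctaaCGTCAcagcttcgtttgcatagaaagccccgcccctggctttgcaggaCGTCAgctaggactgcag
Rph3al, chr11:75925862-75926141, minus strand: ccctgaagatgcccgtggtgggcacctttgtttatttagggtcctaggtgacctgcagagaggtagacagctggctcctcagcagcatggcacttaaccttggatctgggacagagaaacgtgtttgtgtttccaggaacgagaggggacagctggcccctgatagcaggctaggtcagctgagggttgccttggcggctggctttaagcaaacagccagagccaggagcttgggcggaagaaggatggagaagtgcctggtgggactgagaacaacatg
The Rab3a window held 2 matches, which begin 36 bases before and 12 bases after the start, and TGACG on either strand occurs in 20.8% of the 32817 promoter windows. A further start of Rab3a and the window of Rph3al held none. Rab3b, Rab3d and a further start of Rab27a had 1 match each. The full element TGACGTCA (1.79% of windows), the AP-1 site TGANTCA (7.81%), the GATA site AGATAA (11.2%) and the KLF site CCACACCC (3.56%) were not found in the Rab3a or Rph3al windows, and of these 4 only CCACACCC was found for any of the 7 genes, once in Rab3d. The E-box CACGTG (7.15%) was found in windows of Rab3il1 and Rab27a. TGACG lies within TGACGTCA, so these 2 counts are not separate. The motifs were picked after the values were known, and a match is not a measured site.

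The genes around Rab3a were compared to see whether its difference was shared along the chromosome. Within 250 kb of the Rab3a probe, 22 further probes of 21 genes were tested and none was called by limma, while 2 (Jund and ENSMUST00000116172) had an unadjusted p of 0.05 or less at the same fold, which 10.8% of all tested genes had. Their differences ran from −1.65 (Gm3336) to 1.66 (Jund), with a median of 0.19 against −0.16 for all tested probes. Gm3336 was well above background on only 1 array labelled P38α-/-, so its −1.65 is no measured size. The nearest, Mpv17l2, 364 bases from the Rab3a probe, differed by 0.28 (limma adjusted p = 0.614), and Pde4c on the other side by −0.42 (adjusted p = 0.361). For 5 of the 22 probes all arrays labelled P38α-/- were higher, beside 7.44% of all tested genes. They were Jund, which encodes the AP-1 subunit JunD (adjusted p = 0.0960 from limma), the transcript ENSMUST00000116172 with 1.65 (adjusted p = 0.113), Ssbp4 with 0.98 (adjusted p = 0.0876), Pik3r2 with 0.81 (adjusted p = 0.152) and Ifi30 with 0.54 (adjusted p = 0.203). Of these 5, ENSMUST00000116172 was well above background on only 1 P38α+/- array. It was tested through the genotype where it read high, and its 1.65 is no measured size. For 1 probe, ENSMUST00000117580, all arrays labelled P38α-/- were lower, beside 19.7% of all tested genes. The neighbour counts are of probes, while the shares beside them are of genes. The genes Kxd1, Fkbp8, Ell, Isyna1, Lrrc25, Gdf15, Lsm4, Mast3, Arrdc2, Ccdc124 and Map1s had overlapping genotypes.

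**Figure D4:**
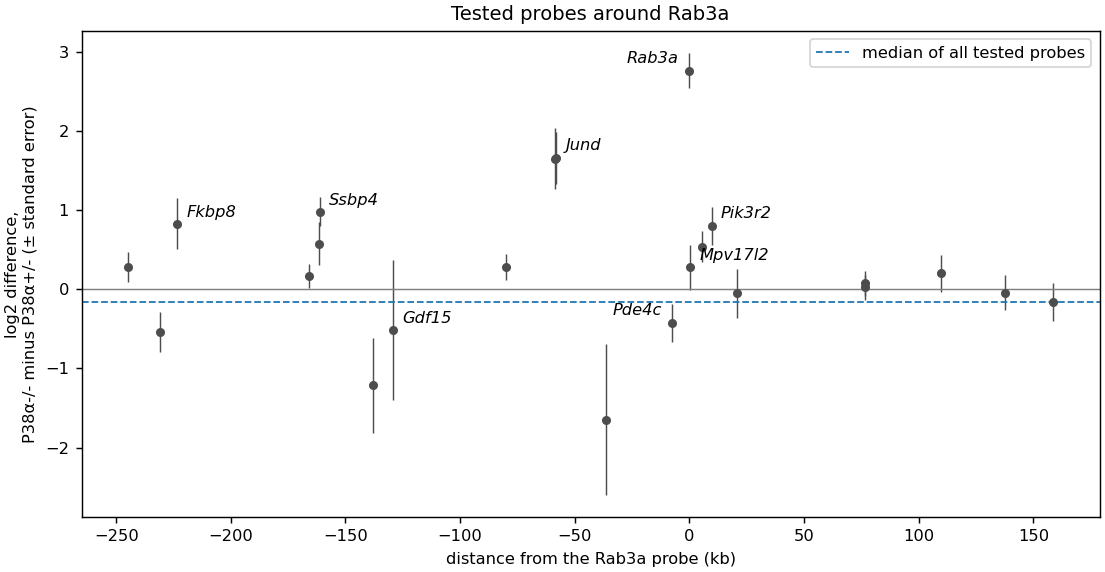
Log2 difference, P38α-/- minus P38α+/-, of the tested probes within 250 kb of the Rab3a probe against the distance from it in kb, with the standard error of the fit. The dashed line is the median tested probe at −0.16. Rab3a stands at 2.76, above every neighbour, of which Jund is the highest at 1.66.

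The genes whose values over the 6 arrays were most like those of Rab3a were Grap2 (Pearson r = 0.998), Prxl2b (0.996), Mlf2 (0.995), Nacc2 (0.995) and Sfxn3 (0.995), each r over 6 arrays that share the split by genotype. Grap2 encodes an adaptor of receptor signalling in blood cells, Nacc2 a transcriptional repressor and Sfxn3 a mitochondrial carrier. Their log2 differences were 2.14 (Grap2), 2.24 (Prxl2b), 0.64 (Mlf2), 2.77 (Nacc2) and 1.09 (Sfxn3), so a high r went with differences of unequal size. None of the 9 exocytosis genes was among these 5.

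The wider exocytosis machinery was described by a list of 82 further genes, of which 49 could be tested. None of the 49 was called by limma, none passed the adjusted p alone, and 1 (Rab32) had an unadjusted p of 0.05 or less at the same fold, beside 10.8% of all tested genes. The median difference was −0.04, or 0.12 above the median tested probe, with 28 genes above it and 21 below. All arrays labelled P38α-/- were higher for 4 of the 49 genes and lower for 6, beside 7.44% and 19.7% of all tested genes.

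Among 13 genes of the Rab3 and Rab27 cycle, 11 were tested. The largest difference was that of Tbc1d10a, a GTPase-activating protein of Rab27a, with −0.77 (standard error 0.21, limma adjusted p = 0.142), all 3 arrays lower. Rab3gap1, the catalytic subunit of the Rab3 GTPase-activating complex, had −0.45 (adjusted p = 0.169 from limma), its partner Rab3gap2 0.30 (adjusted p = 0.616) and the exchange factor Madd −0.11 (adjusted p = 0.817), 3 genes named after their values were seen. The effectors were mostly dim. Of 13 other Rab3 and Rab27 effectors only Sytl1, a synaptotagmin-like protein that binds Rab27, was tested, with −0.90 (standard error 0.35, adjusted p = 0.219 from limma) and overlapping genotypes. None of the 9 synaptotagmins, the calcium sensors of fusion, was tested. Of 5 priming factors only Unc13a was tested. It read −3.02, −5.80 and −6.37 in P38α+/- and below that mark on all arrays labelled P38α-/-, with overlapping values (adjusted p = 0.255 from limma). The approximate bound was 2.67-fold lower. This bound rests on P38α+/- replicate 1 and was 1.32-fold without it, and 4.21-fold without P38α+/- replicate 3.

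The general fusion machinery was detected more fully. Of 22 SNARE proteins and regulators, which drive membrane fusion, 18 were tested, and all 8 exocyst subunits, which tether vesicles, were. Snap29 had the largest difference of the SNARE group with −0.62 (standard error 0.27, limma adjusted p = 0.252), and Exoc4 that of the exocyst with −0.68 (standard error 0.37, adjusted p = 0.335). Among 12 other Rab genes of secretion and recycling, 10 were tested. Rab32, which acts on lysosome-related organelles, had the largest difference of −1.37 (standard error 0.47, limma adjusted p = 0.183), with all 3 arrays lower. It read highest on P38α+/- replicate 2, as did Rab3d and the neutrophil, mast cell, T or NK cell, B cell and monocyte or macrophage lists. The part of other cells in the Rab32 values was not tested.

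**Figure D5:**
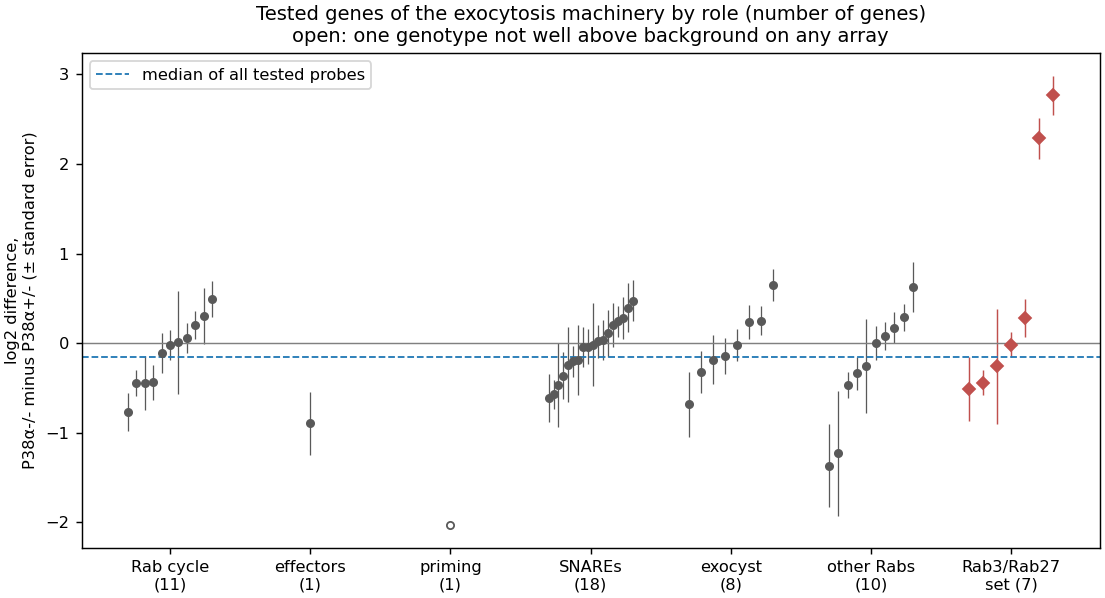
Log2 difference, P38α-/- minus P38α+/-, with the standard error of the fit, of the 49 tested machinery genes by role (grey) and of the 7 tested genes of the Rab3 and Rab27 set (red), each by its brightest tested probe. The dashed line is the median tested probe at −0.16. The filled grey points run from −1.37 to 0.65, below the 2.28 of Rph3al and the 2.76 of Rab3a. The open point is Unc13a, which has only an approximate bound.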

How the data were processed

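RNA of sorted erythroblasts from 6 mice was measured on 1 Agilent array each, from 10 ng of RNA after linear amplification and Cy3 labelling. Spot intensities were deposited by the authors as Agilent Feature Extraction 10.7.3.1 wrote them, with background subtracted within each array. The authors also deposited a table of normalized intensities whose steps are not given in the sources used here. Groups and replicate numbers came from the sample labels. Probe positions are those of mm9.

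Control and outlier spots were left out, spots of a probe were averaged, and 0 spots were saturated. The log2 of the processed signal was taken and each array was centred on its 75th percentile, taken over the 15540 probes that every array showed well above background. Symbols came from the accession for 27509 probes, from a current symbol for 3549 and from a synonym for 404, and 24219 kept the name in the file. A linear model was fitted to all 6 arrays in limma 3.58.1 under R 4.3.3, followed by its two-sided empirical Bayes test, with Benjamini-Hochberg adjustment over 18785 probes, and a call needed an adjusted p of at most 0.05 and a fold of at least 2. Genes with several passing probes were counted once. The script was tested on simulated data.

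The 9 genes, the lists and the motifs were chosen with earlier results of these data known. The text names all 9 genes, called machinery genes and the largest difference per role, genes with a tested probe within 250 kb of Rab3a, the 5 genes most like Rab3a, and Mapk14, apart from items that are not reported here. The main value of a gene is its brightest tested probe, and no level is compared between probes.

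Each array is 1 mouse. After the genotype means were subtracted, same-numbered arrays had correlations of 0.393, 0.242 and 0.389, and other combinations 0.061 or less. Subtracting the mean of 3 arrays ties these correlations to each other, so they do not settle a pairing. The series is described as pairs of mice, so the numbers may pair the arrays. The unpaired fit follows the methods, and the replicate block is an alternative. P38α-/- replicate 3 was alone on its slide and scan. In the authors' table, the column of P38α-/- replicate 2 matched its own scanner signal less closely (Spearman correlation 0.898) than the other 5 columns did (1.00). Alternatives were the percentile over all probes, quantile normalization, normexp background (offset 50), testing all probes or those well above background on all 6 arrays, the authors' table, a replicate or slide block, array weights, the methods' equal-variance test, and each array left out. The number of arrays limits the precision.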

Additional observations from a re-analysis of the deposited data

How the results depend on the processing

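Rab3a, Rph3al and Rab27b were higher and Rab27a was lower in the arrays labelled P38α-/- in all 16 alternatives. The log2 difference of Rab3a was 3.25 with the percentile over all probes, 3.14 with quantile normalization, 3.20 with the authors' normalized values and 2.02 with normexp background, and between 2.63 and 2.91 with 1 array left out. Signs changed for Rab3b (6 higher, 10 lower), Rab3il1 (4 higher, 12 lower) and Rab3c (1 higher, 15 lower). The calls depended on the processing. Against 27 genes called, of which 21 were higher (77.8%), the percentile over all probes called 730 (55.5% higher), quantile normalization 15 (93.3%), normexp background 12, no filter on dim probes 0, the filter on all 6 arrays 64, the authors' normalized values 11, the slide as a block 0, array weights 1674 (14.4%) and the methods' equal-variance test 2. With 1 array left out the count ran from 0 to 310, with 310 without P38α+/- replicate 3 and 0 without any 1 of the other 5. At an unadjusted p of at most 0.05 with the same fold, limma gave 1526 genes in the fit on all arrays and 1138 to 2316 where none was called. The median tested probe moved from −0.16 to 0.32 with the percentile over all probes.

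Of the 9 exocytosis genes, 2 were called (Rab3a and Rph3al), 1 with quantile normalization and 1 with the authors' values (Rab3a), and 0 with normexp background, no filter, the slide as a block and the equal-variance test. With 1 array left out 0 to 3 were called, the 3 without P38α+/- replicate 3 being Rab27a, Rab3a and Rph3al. Rab27a was tested in that fit only because its low P38α+/- array was left out, so nothing is read from its call. The replicate block treats same-numbered arrays as pairs. With it 62 genes were called, 24.2% of them higher, Rab3a and Rph3al stayed called and the machinery list had 0. Of that list, array weights called 4 (Cplx2, Rab32, Rab37 and Sytl1) and leaving out 1 array 0 to 2 (Cplx2 and Stx3 without P38α+/- replicate 3). Stx3, like Rab27a, was not tested in the fit on all arrays. The causes of these changes were not tested. Signal over background limits Rab27a, Rab27b and most effectors, for which only approximate bounds or untested values could be given.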
